A study of Mus musculus with 2 samples.

Results

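The cytosolic ribosomal protein genes, which code for the protein parts of the ribosome outside mitochondria, were followed in single cells of mouse small intestinal organoids. The members were all rows of the expression table whose symbol starts with Rpl or Rps and a digit, with Rplp0, Rplp1, Rplp2 and Rpsa. Rows with -ps in the symbol and the Rps6k kinase genes were left out. This gave 94 of the 37172 genes of the table: 31 standard genes of the small subunit, 46 standard genes of the large subunit and 17 others. The 17 were 15 paralogues or retrocopies and 2 genes classed apart: Rps19bp1, which shares only the symbol pattern, and Rps23rg1, which is related to Rps23. In either culture, 89 of the 94 reached 5 CPM (counts per culture scaled to a total of 1000000), among them all 77 standard genes and 12 of the other 17.

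Organoids, clusters of epithelium grown in a gel, were started from crypts of the proximal small intestine of C57BL/6 wild-type mice and harvested on day 4. One set was grown in Matrigel, a basement membrane extract, under medium with EGF, Noggin and R-spondin1, and formed budding organoids. The other was grown in type I collagen, and formed cystic spheres. Its medium held 3 further additions: 100 ng/mL of Wnt3a, 10 mM of nicotinamide and bovine serum albumin at 1%. Cells were freed from collagen with collagenase at 0.5 mg/mL and from Matrigel with a recovery solution, marked by culture with a barcoded reagent on an antibody to EpCAM, and pooled into 1 library. The number of mice behind the crypts was not stated. Matrix, medium and release differed together and cannot be told apart. As each culture gave 1 cell suspension, the differences below rest on no replicates and were not tested.

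A ribosome has a small subunit, which reads the mRNA, and a large subunit, which joins amino acids, and each holds ribosomal RNA and a fixed set of proteins. Cells make these proteins in balanced amounts, and their mRNAs are among the most abundant in growing tissue. Most of these mRNAs begin with a run of the pyrimidines C and T, the TOP motif (terminal oligopyrimidine tract), through which growth signals set their translation together. In the crypt, stem and dividing cells are known for high ribosome production, which is lowered as cells mature.

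The comparison used 336 collagen cells and 1599 Matrigel cells, with 42540314 and 285201649 counts in all and medians of 124619 and 179044 counts per cell. The median mitochondrial share was 3.43% and 4.63%, and no cell barcode occurred in both cultures. Epithelial markers (Epcam, Cdh1, keratins, Vil1, Cdx2) summed to 9261 CPM in collagen and 4133 CPM in Matrigel. The immune, fibroblast and endothelial lists stayed at 1.69 CPM or less in either, so the markers went with the label of epithelial cells. Because the cells were marked by culture through an antibody to EpCAM, these markers are not an independent check of that label. Counts were partly fractional, as when reads that fit several genes are divided among them. In 74 of the 89 measured genes over 90% of the values above 0 were fractional, and in 4, among them Rps19bp1, Rps4l and Rpl7l1, at most 10% were. Levels of nearly identical copies are therefore uncertain throughout.

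The first comparison asked how much of a cell's RNA came from ribosomal protein genes in each culture. They supplied 25.7% of all counts in collagen cells (exact binomial 95% interval 25.64% to 25.67%) and 28.6% in Matrigel cells (28.60% to 28.61%). These intervals, and the Poisson intervals of single genes below, cover counting error only, and understate even that if a molecule could be counted through several reads. Over single cells the share ran from 3.65% to 38.8% in collagen, with a median of 25.4% (quartiles 22.6% and 28.0%). In Matrigel it ran from 3.20% to 38.6%, with a median of 28.9% (quartiles 26.9% and 30.5%). The ranges overlapped almost fully, and the bulk of collagen cells lay lower: 221 of 336 (65.8%) were below the lower quartile of Matrigel cells, and 63 were above the Matrigel median. After each cell was thinned to 77972 counts the medians were 26.0% over 264 collagen cells and 29.1% over 1477 Matrigel cells, and with mitochondrial counts left out of the total they were 26.4% and 30.3%.

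**Figure D1:**
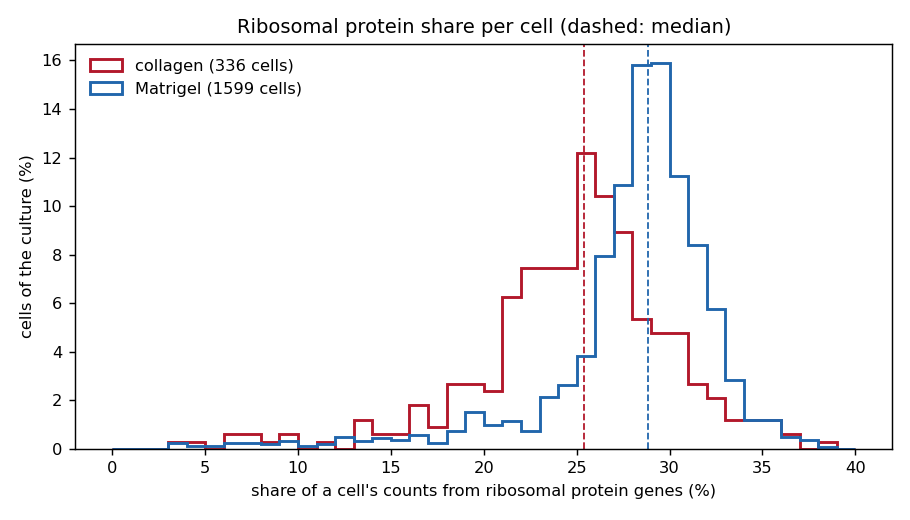
The horizontal axis gives the percentage of a cell's counts that came from ribosomal protein genes and the vertical axis the percentage of the culture's cells in each step, for 336 collagen and 1599 Matrigel cells, with dashed lines at the medians. The collagen median lies at 25.4% and the Matrigel median at 28.9%, and both cultures have a thin tail of cells below 15%.

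The tail of low shares held 16 collagen cells and 49 Matrigel cells under 15%. They were shallow cells with much mitochondrial RNA. Their median depth was 33387 counts in collagen and 37958 in Matrigel, against 126443 and 181679 in the other cells. Their median mitochondrial share was 14.3% and 22.9%, against 3.39% and 4.60%. Over all cells Pearson's r between the ribosomal and the mitochondrial share was −0.59 in collagen and −0.71 in Matrigel, and Spearman's rho was −0.17 and −0.13. Without the low cells the median ribosomal share was 25.6% in collagen and 28.9% in Matrigel cells. Of the low cells, 15 and 46 lay below the depth of thinning and were absent from the thinned cells, in which the median log2 ratio over the measured genes, defined next, was −0.15.

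Gene by gene, the collagen cells were slightly lower across nearly the whole family. The log2 ratio of collagen over Matrigel, with 1 CPM added to each level, was below 0 in 81 of the 89 measured genes (51.2% of all 10593 genes reaching 5 CPM were below 0). Its median was −0.16, with quartiles of −0.26 and −0.07, beside a median of −0.02 and quartiles of −0.43 and 0.41 over all those genes. No member was at least 1.5-fold higher in collagen (18% of all genes were), and 1, Rpl7l1, was at least 1.5-fold lower (19.1%). The other 88 lay within 1.5-fold, and none reached 2-fold in either direction (8.21% of all genes did so in the higher and 8.91% in the lower direction). Counting intervals stood apart in 76 members that were lower and 6 that were higher (42.7% and 40.5% of all genes). Because most members are abundant, the same shares were also taken over the 296 genes reaching 500 CPM. All 77 standard genes, Rpl22l1 and Rps27l are among these 296, so the shares are in part those of the family itself. Of the 296, 61.1% were below 0, and 17.9% lay past 1.5-fold in the higher and 11.8% in the lower direction. Intervals stood apart in 58.8% that were lower and 37.2% that were higher. The family thus held narrow, mostly small negative ratios where other genes spread widely in both directions.

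These ratios depend on the total each culture is scaled to. With ribosomal protein and mitochondrial genes left out of the total, the family's median was −0.25 and 86 of 89 were below 0, while the median of all genes moved to −0.10. With TMM factors (trimmed mean of M values, a scaling from edgeR) it was −0.21, with 84 below 0, and with ratios centred on the median of all genes −0.14, with 77 below 0.

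**Figure D2:**
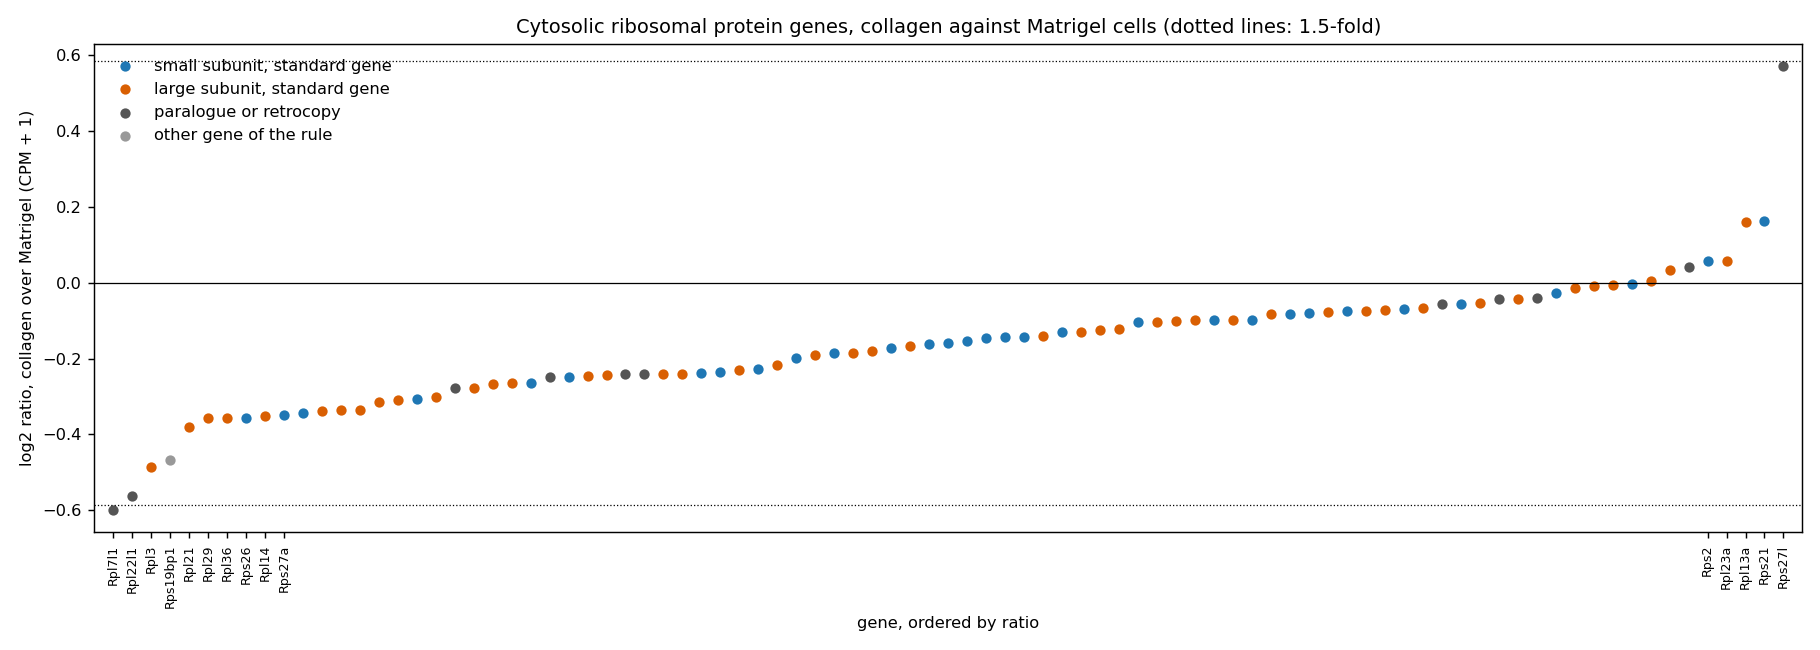
Each point is 1 of the 89 measured genes, ordered along the horizontal axis by its log2 ratio of collagen over Matrigel (vertical axis, 1 CPM added), coloured by subunit or as a paralogue, with dotted lines at 1.5-fold and names at both ends of the order. Most points lie between −0.4 and 0.1, Rpl7l1 and Rpl22l1 end the row on the left near −0.6, and Rps27l stands alone on the right at 0.57.

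The small and the large subunit had similar ratios. Of the 31 standard small subunit genes, 29 had a ratio below 0, with a median of −0.15 (range −0.36 to 0.16). Of the 46 standard large subunit genes, 42 were below 0, with a median of −0.17 (range −0.49 to 0.16). Small subunit genes summed to 111853 CPM in collagen and 124873 CPM in Matrigel, and large subunit genes to 141174 and 157531 CPM. Within single cells, the log2 of small over large subunit counts had a median of −0.34 in both cultures (quartiles −0.38 and −0.30 in collagen, −0.36 and −0.31 in Matrigel). The balance of the subunits' mRNAs thus differed between cultures by less than its own spread over cells, which was itself narrow.

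Among large subunit genes, Rpl3, whose protein sits at the site where amino acids are joined, had the lowest ratio. It was at 1513 CPM in collagen (95% Poisson interval 1501 to 1525) and 2119 CPM in Matrigel (2114 to 2124), a log2 ratio of −0.49. In single cells the medians were 1490 and 2101 CPM, and 7.74% of collagen cells were above the Matrigel median, the smallest such share of any measured member (median over the 89 genes 29.5%). Rpl21 was next, at 2794 CPM in collagen and 3638 CPM in Matrigel (−0.38), with 9.52% of collagen cells above the Matrigel median. Rpl29, Rpl36 and Rpl14 followed, all at −0.36 or −0.35. The opposite end of the large subunit was held by Rpl13a, a protein also known for translational control under interferon, at 1679 CPM in collagen and 1502 CPM in Matrigel (0.16). For Rpl13a 67.9% of collagen cells were above the Matrigel median. Rpl23a, at the exit of the peptide tunnel, was at 0.06, Rpl23, on the face toward the small subunit, at 0.03, and Rpl7a at −0.01. Rpl7 was level, at 3197 CPM in collagen and 3189 CPM in Matrigel.

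Rpl5 and Rpl11, which bind 5S ribosomal RNA and, when free of the ribosome, the p53 inhibitor Mdm2, had unlike ratios. Rpl5 was at 2684 CPM in collagen and 2875 CPM in Matrigel (−0.10), and Rpl11 at 2905 and 3578 CPM (−0.30). Collagen cells above the Matrigel median made up 35.1% for Rpl5 and 10.1% for Rpl11. The stalk proteins, which bring elongation factors to the ribosome, were among the members with small differences: Rplp0 was at 4144 and 4354 CPM (−0.07), Rplp1 at −0.10 and Rplp2 at −0.01.

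In the small subunit, Rps26, found where the mRNA leaves the ribosome, had the lowest ratio of the standard genes, at 5293 CPM in collagen and 6773 CPM in Matrigel (−0.36). Rps27a, made as a fusion with ubiquitin, was at 3684 and 4693 CPM (−0.35). Rps6, the substrate of the S6 kinases that growth signals switch on, was at 2834 and 3102 CPM (−0.13), and Rpsa, also known as the laminin receptor, at 2611 and 2881 CPM (−0.14). Rps21 had the highest ratio of the standard genes, at 1748 CPM in collagen and 1562 CPM in Matrigel (0.16), with 64.3% of collagen cells above the Matrigel median. Rps2 was at 4538 and 4361 CPM (0.06).

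Pyrimidine runs at the start of transcription were examined, since these are what the family's mRNAs are known to share. RefSeq start windows (build GRCm38.p6, matched by symbol, a build other than that of the counts) were at hand for 69 of the 94 members. A run of at least 8 letters C or T on the transcript's strand, within 30 bases on either side of an annotated start, was found in 37 of the 69 (53.6%), and in 4884 of 18926 genes of the table (25.8%). The search used 60-base windows and did not ask that the run begin at the start itself. The following windows hold 10 bases before the start and 20 from it, with the longest run of C and T in the window in capitals. They are shown for an ordinary member (Rps6), for the standard genes and paralogues with unlike ratios described next, and for Rpl13a.
Rps6, chr4:86857348-86857377, minus strand: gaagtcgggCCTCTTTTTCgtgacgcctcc
Rpl13a, chr7:45128726-45128755, minus strand: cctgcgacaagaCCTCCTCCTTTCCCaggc
Rps27, chr3:90213629-90213658, minus strand: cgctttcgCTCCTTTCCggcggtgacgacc
Rps27l, chr9:66946076-66946105, plus strand: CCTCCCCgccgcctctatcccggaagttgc
Rpl22, chr4:152324426-152324455, plus strand: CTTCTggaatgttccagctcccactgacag
Rpl22l1, chr3:28805498-28805527, plus strand: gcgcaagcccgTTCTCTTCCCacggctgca
Rps6, Rpl13a, Rps27 and Rpl22l1 have runs of 10, 14, 9 and 10 letters in these windows, while Rps27l has 7 and Rpl22 has 5. In the 60-base window of the search Rps27l also has a run of 9, as long as that of Rps27, so the difference from Rps27 holds for the printed bases only. Rps27l and Rpl22 each have another annotated start, with runs of 4 and 3 letters. Rpl22l1 and Rpl13a, with long runs, lay at opposite ends of the ratios.

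Paralogues showed the widest spread of any class. Rps27l, a close relative of Rps27 and a known target of p53, was the member with the highest ratio. It was at 1658 CPM in collagen (1646 to 1671) and 1116 CPM in Matrigel (1112 to 1119), 1.49-fold higher in collagen (log2 ratio 0.57). In single cells its median was 1524 CPM in collagen (quartiles 1114 and 2024) and 1090 CPM in Matrigel (875 and 1285), and 75.6% of collagen cells were above the Matrigel median. Rps27 itself was at 2119 and 2269 CPM (−0.10). Rps27l therefore made up 43.9% of the counts of the pair in collagen (43.7% to 44.1%) and 33.0% in Matrigel (32.9% to 33.1%). A share within a pair does not depend on the scaling of the cultures, though its size also reflects how well each mRNA was captured. Rps27l was the highest of the measured members in every alternative setting that held it, with log2 ratios from 0.49 to 0.60.

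The reading frames of Rps27 and Rps27l are of equal length and differ in 61 of 255 bases (76.1% identical), which are in capitals here. Both are GENCODE M21 coding sequences. The untranslated parts of the mRNAs and the reads were not compared, so how far reads of the pair can be told apart was not tested.
Rps27: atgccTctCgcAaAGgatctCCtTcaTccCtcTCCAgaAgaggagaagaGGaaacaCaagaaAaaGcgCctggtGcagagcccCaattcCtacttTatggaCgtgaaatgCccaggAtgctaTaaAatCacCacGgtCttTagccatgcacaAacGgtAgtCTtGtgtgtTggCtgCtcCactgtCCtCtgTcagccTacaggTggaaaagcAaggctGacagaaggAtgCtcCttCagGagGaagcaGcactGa
Rps27l: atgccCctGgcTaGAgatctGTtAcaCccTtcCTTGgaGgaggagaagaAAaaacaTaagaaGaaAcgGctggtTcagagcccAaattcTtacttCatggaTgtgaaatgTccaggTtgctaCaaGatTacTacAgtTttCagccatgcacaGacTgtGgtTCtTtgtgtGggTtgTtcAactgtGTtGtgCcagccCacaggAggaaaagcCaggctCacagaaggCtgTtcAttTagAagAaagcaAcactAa
The differences are spread over the whole frame. In Rps27l 17.9% of the values above 0 were fractional, while in Rps27 99.5% were. Rps27rt, a further copy, has the same 255 coding bases as Rps27 and was listed at 66.1 and 68.8 CPM. Reads that lie within this frame cannot be told apart from those of Rps27.

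Other known targets of p53, in a list chosen after the value of Rps27l had been seen, were set beside it as a description. Of 15 such genes reaching 5 CPM, 9 lay past 1.5-fold in the higher direction in collagen and 1 in the lower (18% and 19.1% of all genes), and their median log2 ratio was 0.75. They include Cdkn1a, an inhibitor of the cell cycle, at 314 CPM in collagen and 78.3 CPM in Matrigel, and Ccng1 at 163 and 39.9 CPM. Across cells the Spearman correlation of Rps27l with the summed share of these genes was 0.25 in collagen and 0.11 in Matrigel, and Pearson's r was 0.17 and −0.03. With Cdkn1a alone, rho was −0.11 in collagen and 0.10 in Matrigel, so this gene did not follow the list's direction in collagen cells. The median of Rps27l in collagen cells was 1309 CPM in the lowest tertile of cells by that share, 1694 CPM in the middle and 1716 CPM in the highest tertile, and 1054, 1108 and 1115 CPM in Matrigel. For Rps27, rho with the list was −0.06 and −0.02, and with Cdkn1a 0.15 and −0.09. Rps27l also correlated with counts per cell (0.18 and 0.29), whose part was not tested. Trp53 mRNA was lower in collagen, at 48.0 CPM against 103 CPM in Matrigel.

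Rpl22l1 went the other way. This paralogue of Rpl22, known to be able to stand in for it, was at 1167 CPM in collagen (1157 to 1178) and 1724 CPM in Matrigel (1719 to 1729), a log2 ratio of −0.56. In single cells the medians were 1094 CPM (quartiles 650 and 1513) and 1685 CPM (1369 and 2001), and 16.7% of collagen cells were above the Matrigel median. Rpl22 was at 1743 and 2093 CPM (−0.26). Rpl22l1 made up 40.1% of the pair's counts in collagen (39.8% to 40.4%) and 45.2% in Matrigel (45.1% to 45.3%). Their coding sequences share 72.7% of the aligned bases.

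Rpl7l1, a gene related to Rpl7, had the lowest ratio of all measured members. It was at 63.2 CPM in collagen (60.8 to 65.6) and 96.2 CPM in Matrigel (95.1 to 97.4), a log2 ratio of −0.60, and made up 1.94% and 2.93% of the counts it shared with Rpl7. The fold of 1.52 only just passed 1.5, and it was not reached when cells were thinned to equal depth (−0.54). Rpl22l1, at 1.48-fold lower, and Rps27l, at 1.49-fold higher, were the nearest on the other side of that threshold. Rps19bp1, which codes for a nucleolar protein that binds Rps19, was at 42.4 and 59.1 CPM (−0.47). Rpl36al, a paralogue of Rpl36a, was at 296 and 352 CPM (−0.25) and made up 11.6% of its pair in both cultures. The standard partners of the paralogues named here and below (Rpl6, Rpl10, Rpl32, Rpl36a, Rpl37, Rpl39, Rps3a1, Rps4x and Rps12) had log2 ratios from −0.33 to −0.08.

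The remaining copies were low. In Rpl6l, Rpl37rt, Rpl32l, Rps12l1, Rps3a2 and Rps3a3 nearly all values above 0 were fractional, and in Rps4l at most 10% were. Rpl6l, Rpl37rt, Rpl32l, Rps12l1, Rps3a2 and Rps4l had log2 ratios from −0.28 to 0.04 at levels between 9.61 and 97.6 CPM. Rps4l was counted in 53 collagen cells and 378 Matrigel cells. Rps3a3 and Rps23rg1 stayed under 5 CPM. The paralogues known from testis and muscle were at or near 0: Rpl10l had 0 counts in collagen, which allows up to 0.0867 CPM by the 95% Poisson interval, and 4 in Matrigel, Rpl39l had 8 and 24, and Rpl3l had 1 and 12. The 317 rows with -ps in the symbol, which the rule leaves out, summed to 5009 CPM in collagen and 5514 CPM in Matrigel.

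The standard genes also varied together from cell to cell. For each gene, its share of a cell's counts was set against the summed share of the other members. Spearman's rho had a median of 0.71 over the 336 collagen cells and 0.67 over the 1599 Matrigel cells. It reached 0.5 in 74 and 72 of the 89 genes, all of them standard genes. No such rho is given here for genes outside the family, abundant ones included. These counts therefore do not show that varying together is particular to the family. Rpl27a was highest in collagen (0.86) and Rps26 in Matrigel (0.82). The lowest standard genes were Rpsa, at 0.30 in collagen and 0.38 in Matrigel, and Rpl38, at 0.34 and 0.31. Paralogues lay below most standard genes, though not all of them below Rpsa and Rpl38. Rps27l was at 0.16 and 0.15, Rpl22l1 at 0.42 and 0.35, Rpl36al at 0.37 and 0.11, and Rpl7l1 at 0.13 and −0.05. Abundance differs between these classes, and low counts alone weaken a correlation, so Rps4l (0.06 and 0.01) and Rps19bp1 (0.13 and 0.00) are given only for completeness. Rps27l and Rpl22l1 drew more counts than Rpl38 (793 and 936 CPM). In rho, Rps27l lay below Rpl38 in both cultures and Rpl22l1 above it in both.

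**Figure D3:**
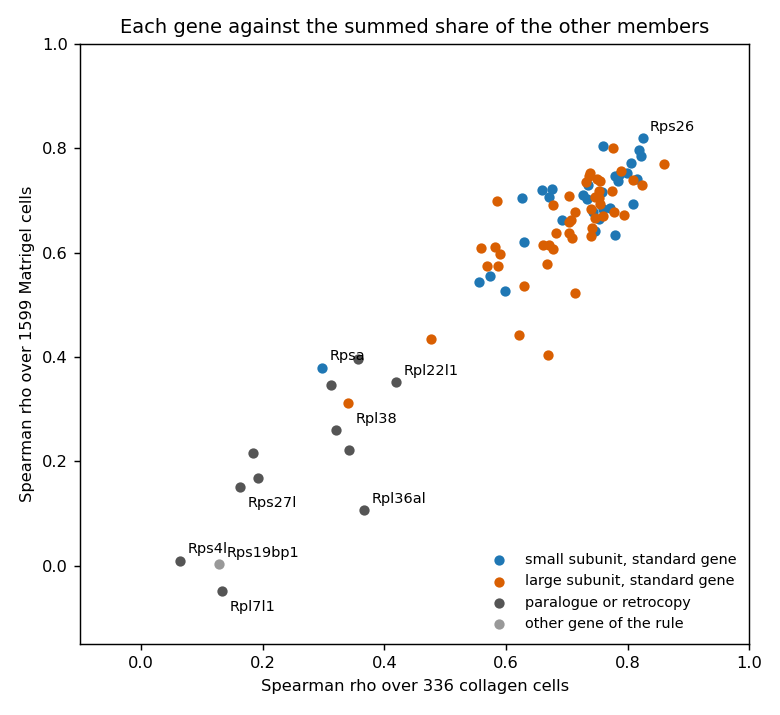
Each point is 1 measured gene, placed by Spearman's rho between its share of a cell's counts and the summed share of the other ribosomal protein genes, over 336 collagen cells (horizontal) and 1599 Matrigel cells (vertical). Standard genes of both subunits gather in the upper right, with medians of 0.74 and 0.68, and the paralogues, Rpsa, Rpl38 and Rpl41 lie below 0.5 on both axes.

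The relation to proliferation was then taken within each culture. A summed list of 42 S phase genes was far lower in collagen cells, at 963.8 CPM against 2820 CPM, with 41 of 42 genes at least 1.5-fold lower (19.1% of all genes were). A list of mitotic (G2/M) genes was at 2669 and 3129 CPM. Of its 51 measured genes, 8 lay past 1.5-fold in the higher and 10 in the lower direction, near the shares of all genes (18% and 19.1%). Per cell, the ribosomal protein share and the S phase share had no more than a weak relation: Spearman's rho was 0.07 in collagen and 0.09 in Matrigel, and Pearson's r was 0.04 and 0.15. After thinning, rho in Matrigel was 0.00. The median share in the lowest, middle and highest tertile of cells by S phase share was 24.6%, 25.6% and 25.9% in collagen and 28.5%, 28.9% and 28.9% in Matrigel. In each tertile the collagen median lay below the Matrigel median, and the median of the lowest Matrigel tertile was above that of the highest collagen tertile.

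With the G2/M list the cultures were apart in the rank correlation and close in Pearson's r. The rank correlation was −0.01 in collagen and −0.23 in Matrigel, while Pearson's r was −0.07 and −0.05. In Matrigel the median share was 30.0%, 28.9% and 28.1% from the lowest to the highest tertile (25.1%, 26.0% and 25.3% in collagen). The difference between cultures was not tested. Depth was higher in the highest tertiles, with medians of 192532 counts in Matrigel and 143032 in collagen against 156231 and 114612 in the lowest. After thinning to equal depth rho in Matrigel was −0.31.

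**Figure D4:**
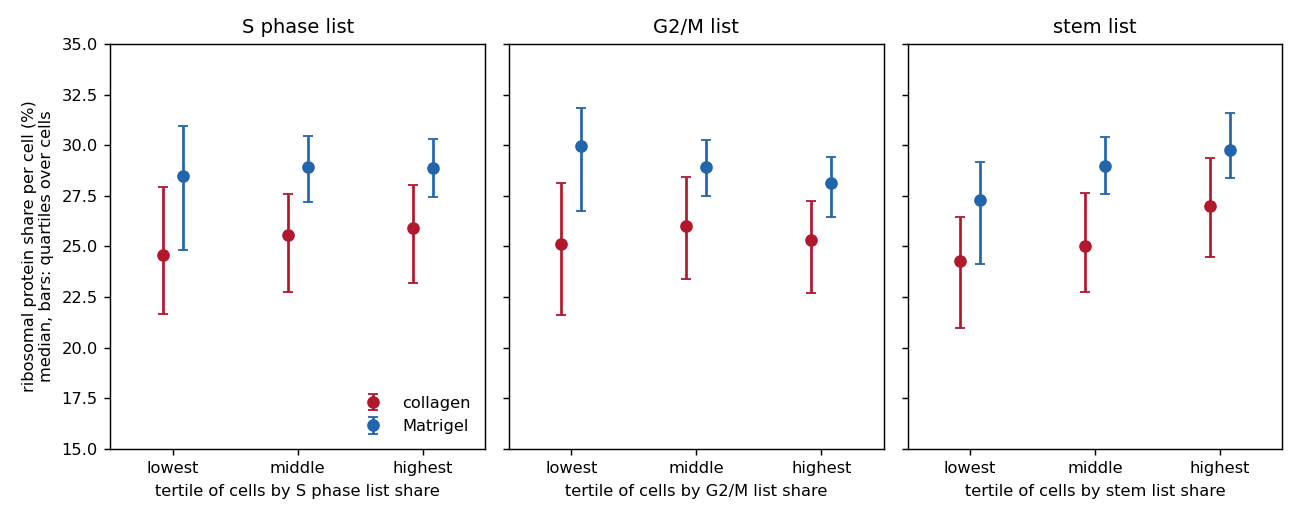
Points give the median percentage of a cell's counts from ribosomal protein genes, and bars the quartiles over cells, in the lowest, middle and highest tertile of 336 collagen and 1599 Matrigel cells by the share of the S phase, G2/M and stem lists; the vertical axis runs from 15% to 35%. Matrigel medians lie above collagen medians in every tertile, and the widest steps are along the stem list, from 24.3% to 27.0% in collagen and from 27.3% to 29.8% in Matrigel. In the lowest collagen tertile of the stem list the median share of that list was 0%.

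Single genes differed in their relation to the proliferation lists. In collagen cells Rpl3 had the highest rho of the 89 genes with both the S phase list (0.30) and the G2/M list (0.26), and Rplp0 the lowest with both (−0.17 and −0.27). In Matrigel cells Rplp1 was highest with S phase (0.25) and Rpl10 lowest (−0.08). With G2/M in Matrigel, 9 of 89 genes were above 0, Rpl7l1 was highest at 0.24 and Rpl10 lowest at −0.26. The family's summed share itself had a rho of −0.23 there, and no such count is given for other genes. Rpl3 stood at 0.08 with S phase and −0.12 with G2/M there.

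Stem and mature cells were compared through marker lists. A stem list (Lgr5, Olfm4, Ascl2, Smoc2, Axin2) was itself at 146 CPM in collagen and 2176 CPM in Matrigel, of which Olfm4 gave 31.2 and 1637 CPM. Olfm4 is 1 of 49 genes that the table lists apart from the rest, and its low values are absent: its lowest value above 0 in a cell was 12 counts, against 0.25 or less in the other stem genes. The same holds for Agr2 and Fcgbp of the goblet list and for the whole Paneth list, where the lowest values ranged from 5 to 177 counts. Along the tertiles of the stem list the median ribosomal protein share was 27.3%, 29.0% and 29.8% in Matrigel and 24.3%, 25.04% and 27.0% in collagen. The stem list's own median share in these tertiles was 0.033%, 0.18% and 0.41% in Matrigel. In collagen it was 0%, 0.0031% and 0.024%, so the lower collagen tertiles rest on few or no stem counts. The rank correlation of the ribosomal protein share with the stem list share was 0.44 in Matrigel and 0.22 in collagen, and Pearson's r was 0.37 and 0.04. Without Olfm4 the stem list summed to 539 and 115 CPM in Matrigel and collagen, rho was 0.35 and 0.22, and r was 0.25 and −0.03. The 80 Matrigel cells in the top 5% of the stem list, a range and not a cell type, had a median of 31.5%, and 30.7% when Olfm4 was left out of the list. The top 80 by enterocyte markers had 24.1%, those by goblet markers 26.0% and those by Paneth markers 26.2%, against 28.7% to 28.9% in the rest of the cells for each list. The collagen cells did not repeat this order. Their top 17 by the stem list had a median of 25.1% (22.6% without Olfm4), by enterocyte markers 24.4%, by goblet markers 27.1% and by Paneth markers 26.4%, against 25.4% to 25.5% in the rest. The top 17 by stem markers were shallow, with a median of 93232 counts against 124660 in the other collagen cells, and their median mitochondrial share was 5.96%. Their part in the result was not tested. Matrigel cells with a count of Lgr5 had a median of 29.0% (1490 cells, median depth 180605) and those without 24.1% (median depth 156717). In collagen, 160 cells with a count of Lgr5 had 26.4% (median depth 131896) and the others 24.7% (median depth 115458). From the lowest to the highest stem tertile, median depth went from 104805 to 132088 counts in collagen and from 184348 to 171556 in Matrigel. Over all cells, rho between the ribosomal protein share and counts per cell was 0.27 in collagen and 0.03 in Matrigel, and Pearson's r was 0.27 and 0.33. The part of depth in these differences was not tested. Collagen cells with a count of Sprr1a, Ly6a, Muc3 or Clu had medians from 24.4% to 25.8%, against 24.8% to 25.7% without it.

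Genes that build or serve the ribosome were set beside the proteins it holds. Ribosome biogenesis genes, which process ribosomal RNA and assemble the subunits in the nucleolus, were much lower in collagen: 40 of 50 lay past 1.5-fold in the lower direction and 0 in the higher (19.1% and 18% of all genes). Their median was −0.89, with sums of 3082 CPM and 5908 CPM. Gnl3, coding for nucleostemin, was at 41.5 CPM in collagen and 170 CPM in Matrigel (−2.01). Nop56, a core protein of the particles that methylate ribosomal RNA, was at 100.5 and 339 CPM (−1.75), Rrp1b at −1.72 and Dkc1, the pseudouridine synthase, at −1.63. Genes for RNA polymerase I, which makes the ribosomal RNA, and for its transcription factors had a median of −0.67. Of these, 8 of 14 were lower past 1.5-fold and 0 higher (19.1% and 18% of all genes). Their lowest ratio was that of Ubtf, one of the transcription factors, at 34.1 and 65.9 CPM (−0.93). The nucleolar lists and the ribosomal proteins thus parted in size, with 40 of 50 biogenesis genes and 1 of 89 ribosomal protein genes past 1.5-fold in the lower direction.

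Within cells the relation between them was weak and depended on the measure. The biogenesis list followed the S phase list with a rho of 0.63 in collagen and 0.52 in Matrigel, and the ribosomal protein share with 0.18 and −0.11. With ribosomal protein and mitochondrial genes left out of the denominator of the biogenesis share, the latter became 0.26 and 0.01, and with the cell total as denominator Pearson's r was 0.14 and 0.15. Elongation factors followed the ribosomal protein share with 0.63 and 0.59, and a list of other TOP mRNAs with 0.57 and 0.67. Except where stated, these shares have the same cell total as their denominator.

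Initiation factors had a median of −0.23, and 8 of 37 were lower past 1.5-fold and 1 higher, beside 19.1% and 18% of all genes, so the share that was lower was near that of all genes. The lowest were Eif2b3 (−1.31) and Eif2b1 (−1.22), subunits of the exchange factor of eIF2, and the highest was Eif2s2, a subunit of eIF2, at 954.9 and 530.3 CPM (0.85). Elongation and release factors had a median of −0.28, and 3 of 9 were lower past 1.5-fold (19.1% of all genes). Eef1g was at 540.2 CPM in collagen and 1086 CPM in Matrigel (−1.01), while Eef1a1 was at −0.03 and Eef2 at 0.37. Of 11 genes that are other TOP mRNAs or ribosomal proteins under other symbols, the median was −0.02. Vim (17.5 and 4.64 CPM) was higher past 1.5-fold and Hnrnpa1 (−0.59) lower. Among them Fau, whose product carries the small subunit protein S30, was at 3570 and 3462 CPM and Rack1, a small subunit protein, at 2003 and 2234 CPM. Tpt1 was at 0.42 and Npm1, which exports ribosomes from the nucleolus, at −0.56.

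Mitochondrial ribosomal proteins, which serve a separate ribosome, had a median of −0.40, and 27 of 78 were lower past 1.5-fold and 2 higher (19.1% and 18% of all genes). The lowest was Mrpl23, at 53.8 and 202 CPM (−1.89). Of the growth regulators, Myc, which drives ribosome production, was at 32.1 CPM in collagen and 68.2 CPM in Matrigel (−1.06), its antagonist Mxd1 at 44.5 and 3.66 CPM (3.29), and Larp1, which binds TOP mRNAs, at 88.5 and 156 CPM (−0.81).

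**Figure D5:**
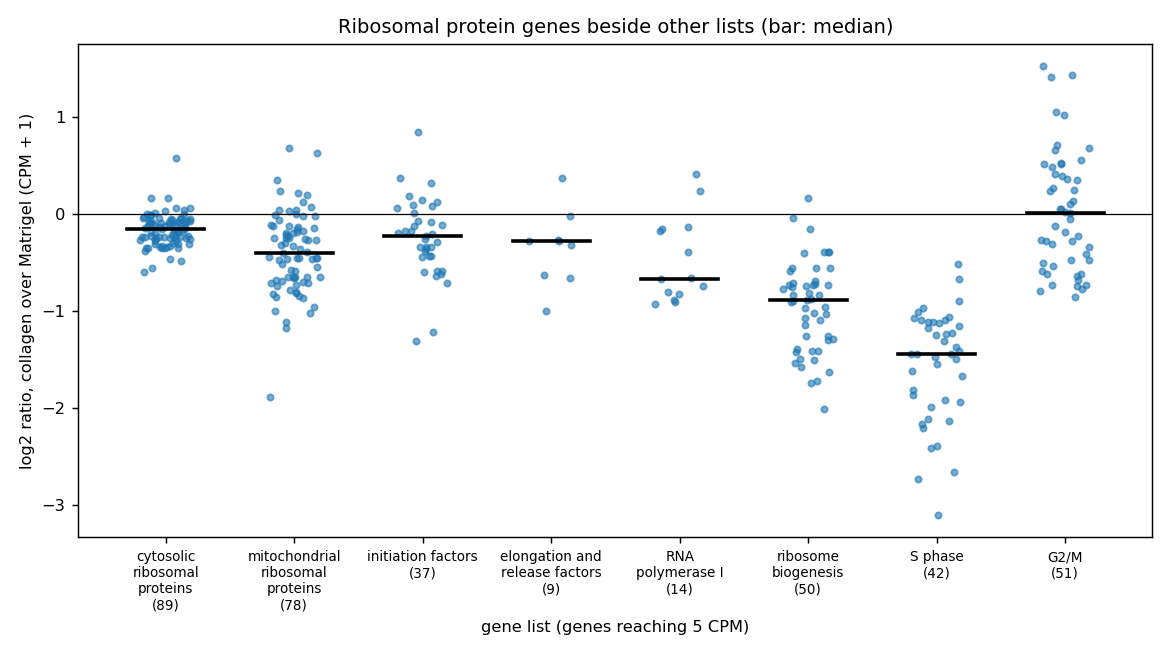
Each point is a gene reaching 5 CPM, placed by its log2 ratio of collagen over Matrigel (vertical axis, 1 CPM added) in the list named below it with its number of genes, and bars give the medians. Cytosolic ribosomal protein genes form the narrowest group, with a median of −0.16, while the biogenesis list centres on −0.89 and the S phase list on −1.44.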

How the data were processed

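Expression came from 1 cDNA library, and culture from 1 hashtag library of the same pooled cells, captured on BD Rhapsody beads and amplified by TAS-Seq, per the labels' protocols. The submitters' processing notes list cutadapt 4.1, STARsolo 2.7.10a, R 4.2.1 and the GRCm39 build, with no role or order. The annotation, and whether copies of a molecule were collapsed, are not given in the sources used here.

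The authors deposited unscaled expected counts (also called estimated counts) for 2090 cells. Of the values above 0, 75.6% were whole within 1e-06. Sums were rounded to whole numbers for intervals and TMM. For thinning each value of a gene in a cell was rounded, so small fractional values were lost there. The authors also deposited whole-number hashtag counts for 200497 barcodes, of which 9 hashtag columns were not used. Cell names carry the culture's hashtag, and 139 cells named as doublets were left out. No doublet caller was run. Cells needed 500 detected genes and at most 30% mitochondrial counts, which removed 16 of 1615 Matrigel cells.

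Counts were summed per culture and scaled to CPM. Log2 ratios had 1 CPM added. With 1 suspension per culture, past 1.5-fold stood in for a call, beside its share over all genes reaching 5 CPM. Exact 95% Poisson and Clopper-Pearson intervals came from scipy 1.17.1 (numpy 2.4.6, pandas 2.3.3), TMM factors from edgeR 4.0.16 in R 4.3.3, and figures from matplotlib 3.10.9. Correlations over cells are descriptions without a p. The calculation was tested on simulated data. Coding sequences (GENCODE M21) were aligned with biopython 1.88.

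Named genes were the 10 highest and 10 lowest ratios, every paralogue and its standard gene, Rpl3, Rpl5, Rpl11, Rplp0, Rps6 and Rpsa, and up to 4 genes of each other list. A few genes under this rule are not reported here, and those named beyond it were chosen after their values were seen. The members and lists were chosen with earlier results of these data known, and support nothing independently.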

Additional observations from a re-analysis of the deposited data

How the results depend on the processing

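No paired analysis was possible because each culture was 1 suspension, and for the same reason no replicate could be left out. Of the alternatives run for the family's medians, counts, shares and pair shares, none changed the direction of the family's median, of Rps27l or of Rpl22l1. The count of members at least 1.5-fold lower, 1 in the main analysis, was 0 with the culture set by a hashtag share of 60%, with 10 CPM added, with ratios centred on all genes, with thinned cells and in cells of 100000 to 200000 counts, and 2 with members and mitochondrial genes left out of the total and with TMM factors. The count higher was 1, Rps27l, with centred ratios, with the mean of per-cell shares and in the cells of 100000 to 200000 counts. Leaving members and mitochondrial genes out of the total moved the median from −0.16 to −0.25, that of the small subunit to −0.23, of the large to −0.26 and of initiation and elongation factors to −0.36. TMM moved the small subunit to −0.20. The 4 members with at most 10% fractional values had a median of −0.35, and were too few for medians by subunit. With 10 CPM added the biogenesis median was −0.64. The cause of these moves was not tested, beyond what each setting changes by construction.

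The median share per cell in collagen and Matrigel was 26.0% and 29.1% with thinned cells, 26.0% and 29.6% in cells of 100000 to 200000 counts, 26.4% and 30.3% without mitochondrial counts, and in Matrigel 29.4% with pseudogene counts added. The log2 of small over large was −0.33 in thinned collagen cells and −0.33 in Matrigel cells of 100000 to 200000 counts. The window of 205 and 819 cells and the added pseudogene counts were chosen after seeing the data. In Matrigel, rho with S phase was 0.0042 and with G2/M −0.31 after thinning, and −0.12 with both lists together. Leaving the genes without low values out of the stem and goblet lists, also chosen after seeing the data, moved rho with the stem list in Matrigel from 0.44 to 0.35 and kept the direction of the others.

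The share of Rps27l in its pair in collagen was 42.9% and 43.6% at hashtag shares of 60% and 95%, 43.3% thinned, 43.6% in the window and 42.1% as a mean over cells, and in Matrigel 32.6% thinned, 31.6% in the window and 31.7% as a mean over cells. That of Rpl22l1 in collagen was 40.6% at a hashtag share of 60% and 38.4% as a mean over cells, and in Matrigel 45.0% thinned, 44.6% in the window and 43.9% as a mean over cells. That of Rpl36al was 11.3% thinned and 12.1% as a mean over cells in collagen, and 11.4% thinned, 11.2% in the window and 12.3% as a mean over cells in Matrigel. A hashtag share of 60% brings 49 and 54 cells named as doublets into the cultures.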
